A study of Mus musculus with 4 samples.

Results

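Complex I, the NADH:ubiquinone oxidoreductase, is the entry point of the mitochondrial respiratory chain, and most of its subunits are encoded in the nucleus. The 38 genes described here are those whose symbols carry the Ndufa, Ndufb, Ndufc, Ndufs or Ndufv stem followed by a number, together with Ndufab1, of 32285 genes listed in the count matrices. The Ndufaf assembly factors were not included. The rule reads the symbol and no measured value. The genes lie on 15 chromosomes in the GENCODE vM21 annotation (GRCm38).

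The cells came from the aorta-gonad-mesonephros region (AGM) of C57BL/6J mouse embryos at embryonic day 11.5, the tissue in which haematopoietic stem cells form. They were sorted for CD31 and then by TMRM, a dye drawn into mitochondria by the potential across their inner membrane, into a low gate (MMPlow) and a high gate (MMPhigh). Both gates share the strain and the CD31 sort, and the labels give no further treatment or allele. Each gate has 2 single-cell libraries, called MMPlow 1 and 2 and MMPhigh 1 and 2 here, and the labels do not say whether these came from separate embryos, so a p-value measures only the spread between these libraries.

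Complex I takes electrons from NADH, passes them through a chain of iron-sulfur clusters to ubiquinone and pumps protons out of the matrix, which builds the potential that TMRM reports. Its nuclear subunits fall into an N module, where NADH is oxidized, a Q module, where ubiquinone is reduced, and the proximal and distal parts of the membrane arm. A small core of subunits carries the cofactors and the catalysis, while the many accessory subunits surround it and serve assembly and stability, and the membrane-embedded proton pumps are encoded by mitochondrial DNA. Ndufa4 and its paralog Ndufa4l2 bear the family name, but the Ndufa4 protein is now assigned to complex IV, cytochrome c oxidase.

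The libraries differed in depth and in the cells they held. Totals ran from 51800709 to 120168395 unique molecular identifiers (UMIs), and after filtering 16698, 18583, 4403 and 3418 cells were retained in MMPlow 1, MMPlow 2, MMPhigh 1 and MMPhigh 2, with medians of 3145, 3651, 3685 and 23668.5 UMIs per cell. Pairs of libraries shared 7 to 87 barcode sequences. The doublet caller marked 2 and 0 barcodes in MMPlow 1 and MMPhigh 1, which is taken as a failure of the caller there. The CD31 label did not hold evenly: the 12 endothelial markers, Pecam1 among them, summed to 3073 and 3012 CPM (UMIs scaled to a common total per library) in MMPlow and to 140 and 116 CPM in MMPhigh, with no marker at 0, and endothelial-like cells numbered 7361 and 8430 against 13 and 13. Whether this comes from the gates or from the labels cannot be told apart here, and it bears on every value given as MMPhigh over MMPlow. Cell classes were named from markers, carry the ending "-like", and left 4290, 4774, 2693 and 773 cells in clusters without a name. Gate and cell mixture therefore moved together over the sums of all cells. Median depth set MMPhigh 2 apart, while MMPhigh 1 lay close to MMPlow 2. The parts of gate, mixture and depth in a difference cannot be told apart there.

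Complex I transcripts took a slightly larger part of the MMPhigh transcriptome. The 38 genes held 0.667% and 0.670% of all UMIs in the MMPlow libraries and 0.723% and 0.704% in the MMPhigh libraries. The group means were 0.668% ± 0.00240 and 0.713% ± 0.0136 (SD, n = 2 each), and the groups did not overlap. With the cells in clusters without a name left out, the groups overlapped, and MMPhigh 1 lay between the MMPlow libraries. With 2 libraries against 2, an exact permutation test cannot give a p below 0.333, so no p is given for this share. Because it is a share of summed RNA, a change in these transcripts and a change in the rest of the RNA cannot be told apart.

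The gap depended on the depth of the cells compared. Among cells with 2000 to under 5000 UMIs the share was 0.610% and 0.590% in MMPlow against 0.878% and 0.614% in MMPhigh. The MMPhigh 2 value came from 233 cells, against 2780 in MMPhigh 1 and 13023 and 13049 in MMPlow. Among cells with at least 5000 UMIs the order turned, with 0.746% and 0.742% in MMPlow against 0.684% and 0.705% in MMPhigh. These cells were not matched for depth, with medians of 6763 and 7332 UMIs in MMPlow against 14914 and 25025 in MMPhigh. In both MMPlow libraries the deeper cells had the higher share, while in MMPhigh 1 they had the lower one. In the shallower cells of MMPhigh 2 the share was 0.299% in macrophage-like cells, of which there were 10, and 0.239% in mesenchymal-like cells, of which there were 21. With every cell thinned to 2000 UMIs the share was 0.638% and 0.633% in MMPlow against 0.806% and 0.676% in MMPhigh, a wider gap in the direction of all cells.

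**Figure D1:**
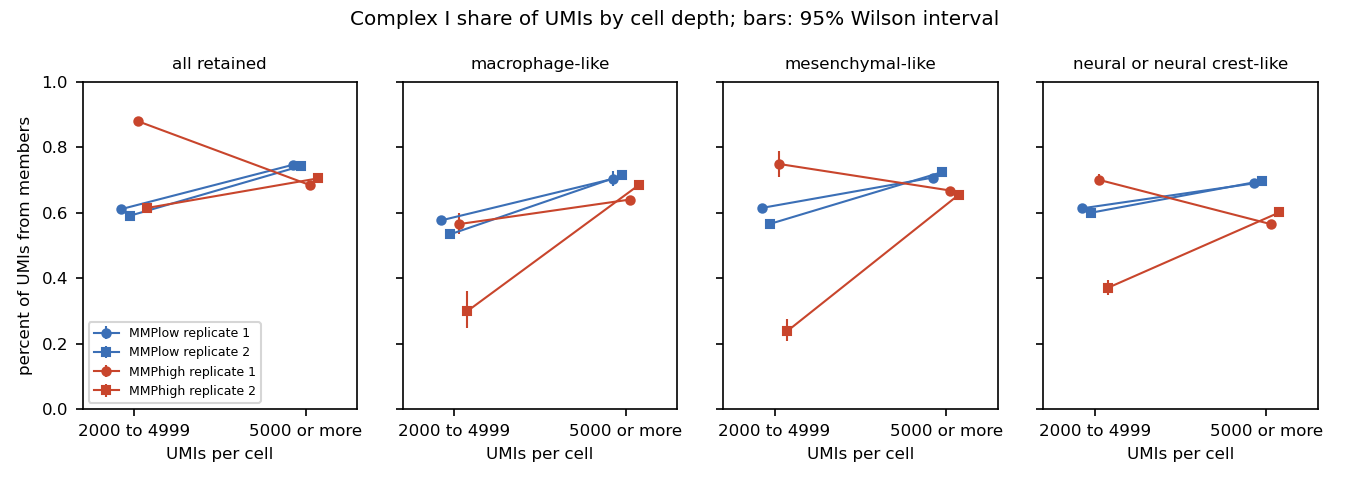
Percent of UMIs from the 38 complex I genes in each library, for cells of 2000 to under 5000 UMIs and of 5000 UMIs or more, in all retained cells and in 3 classes, with 95% Wilson intervals for counting error. In all retained cells the deeper stratum places both MMPlow libraries (0.746% and 0.742%) above both MMPhigh libraries (0.684% and 0.705%).

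The share also differed from class to class. The cells without a name, 61.2% of MMPhigh 1 and 22.6% of MMPhigh 2, gave 0.694% and 0.725% in MMPlow against 0.845% and 0.808% in MMPhigh, a wider gap than in all cells. The gates filled these clusters differently, so that gap compares different cells. The cluster led by Hbb-bs and Crabp1 held 48 and 36 MMPlow cells against 1934 and 180 MMPhigh cells, and others held no MMPhigh cell. Germ cell-like cells had means of 0.706% and 0.815% and megakaryocyte-like cells 0.680% and 0.758%, with separated libraries in both. Neither depth stratum separated the megakaryocyte-like libraries. Cells of at least 5000 UMIs had 0.724% and 0.794% in MMPlow against 0.702% and 0.777% in MMPhigh. The shallower ones had 0.604% and 0.629% against 0.892% and 0.475%. Erythroid-like cells gave 0.823% ± 0.0177 in MMPlow and 0.878% ± 0.00654 in MMPhigh (SD, n = 2 each). Globin UMIs in this class were 7.76% and 5.63% in MMPlow and 2.08% and 0.404% in MMPhigh, and with globin, ribosomal protein and mitochondrially encoded genes out of the denominator the share was 1.19% against 1.21%. Macrophage-like cells gave 0.605% ± 0.00203 and 0.660% ± 0.0325 (SD, n = 2 each), an order that neither depth stratum showed. Their shallower cells had 0.576% and 0.533% in MMPlow against 0.565% and 0.299% in MMPhigh, and their cells of at least 5000 UMIs had 0.703% and 0.713% against 0.640% and 0.684%. Mesenchymal-like cells had 0.660% in MMPlow and 0.661% in MMPhigh, but in those of at least 5000 UMIs MMPlow was higher, at 0.707% and 0.723% against 0.667% and 0.655%. Neural or neural crest-like cells ran the other way, with 0.657% ± 0.00644 in MMPlow and 0.588% ± 0.0155 in MMPhigh. So did epithelial or mesonephric-like cells, at 0.674% and 0.634% against 0.556% and 0.548%, the latter from 21 and 16 cells. Endothelial-like cells overlapped, at 0.663% and 0.638% against 0.649% and 0.556%, with 13 cells in each MMPhigh library. The median over neural cells thinned to 2000 UMIs was 0.6% in both gates, and cells of 2000 to under 5000 UMIs overlapped, at 0.613% and 0.599% against 0.700% and 0.370%. Beside these, UMIs of ribosomal protein genes went from 15% to 16.6% in the macrophage-like class and from 13.6% to 10.3% in the neural class, and UMIs of long genes from 16.5% to 14.1% and from 21.4% to 26.7%. Their part in the difference was not tested.

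Within MMPlow, where each named class held at least 30 cells in a library, the level of most members varied little between cell types. For the 37 members other than Ndufa4l2, the class with the highest mean level had 1.27 to 2.52 times that of the lowest among 12 named classes, with a median of 1.67. Erythroid-like cells ranked highest for 22 of the 38 members, germ cell-like cells for 7 and muscle progenitor-like cells for 5. Several first places overlapped with the second, as for Ndufs8, at a mean of 79.7 CPM in erythroid-like and 79.5 CPM in muscle progenitor-like cells. The lowest place was spread over germ cell-like (8), granulocyte or mast-like (8), macrophage-like (8) and haematopoietic progenitor-like cells (7). These orders describe class sums that were themselves clustered from expression, so they carry no test. Endothelial markers summed to 5328 and 5602 CPM in the endothelial-like cells of MMPlow and to 1760 and 698 CPM in its germ cell-like cells. RNA from other cells was not subtracted, and its part in the narrow ranges was not tested.

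Ndufs7, the Q module subunit that carries the last iron-sulfur cluster before ubiquinone, had the widest range of the 37. It measured 298 and 289 CPM in the erythroid-like cells of MMPlow and 370 and 330 CPM in those of MMPhigh. In neural or neural crest-like cells it measured 113 and 119 CPM in MMPlow and 108 and 97.0 CPM in MMPhigh. The separation between these classes was thus present in all 4 libraries and exceeded the difference between gates in either class. Ndufa8, an accessory subunit facing the intermembrane space, was the one member highest in endothelial-like cells, at 189 and 196 CPM in MMPlow, and Ndufb11, a membrane arm subunit, was the one highest in macrophage-like cells. In both cases the MMPlow libraries overlapped with those of the class in second place.

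Ndufa4l2 stood apart from the rest in level and distribution. Over all cells it measured 6.01, 4.04, 6.90 and 8.91 CPM in MMPlow 1, MMPlow 2, MMPhigh 1 and MMPhigh 2, whereas the lowest value of any other member was 62.6 CPM, for Ndufv1, and the highest was 611 CPM, for Ndufa4. Among the named classes its level was highest in erythroid-like cells, at 62.4, 27, 15.5 and 37.3 CPM, and mural-like cells, at 26.8, 16.8, 17 and 64.8 CPM. Endothelial-like cells had 1.88 and 0.78 CPM in MMPlow, and no UMI was found in germ cell-like cells. The gates overlapped in both of the richer classes.

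The first comparison set MMPhigh against MMPlow over all retained cells, which is the sort as the study made it. Of the 38 members, 11 were higher and 0 lower in MMPhigh by edgeR's quasi-likelihood test at a Benjamini-Hochberg adjusted p under 0.05, among 20517 genes of which 27.2% were called higher and 26.5% lower. DESeq2 also called 11 higher and 0 lower, and at an unadjusted p 13 were higher and 0 lower, as were 6164 and 6016 of all 20517 genes. The part of the members called higher was therefore close to the background, while no member was called lower. The median log2 fold change, MMPhigh over MMPlow, was 0.16 for members and 0.01 for all genes tested. The 2 libraries of each gate did not overlap, with MMPhigh higher, for 21 members and, with MMPhigh lower, for 3, against 37.4% and 40.8% of all genes.

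Among the core subunits, 6 of 7 were higher, with a median log2 fold of 0.37. Ndufs8, which holds a pair of iron-sulfur clusters on the path to ubiquinone, measured 68.5 and 72.7 CPM in MMPlow and 113 and 97.7 CPM in MMPhigh. Its log2 fold was 0.62 (SE 0.105, adjusted p = 0.00143, edgeR), the groups lying well apart. Ndufs3, a Q module scaffold at the foot of the peripheral arm, measured 82.9 and 90.2 CPM against 125 and 116 CPM. Its log2 fold was 0.51 (SE 0.0967, adjusted p = 0.00242, edgeR). Both MMPhigh libraries were again above both MMPlow libraries.

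Ndufv1, which binds NADH and the flavin cofactor, measured 66.6 and 62.6 CPM in MMPlow and 84.9 and 80.5 CPM in MMPhigh, a log2 fold of 0.39 (SE 0.0849, adjusted p = 0.00492, edgeR). Its partner Ndufv2 measured 134 and 133 CPM against 177 and 160 CPM, a log2 fold of 0.37 (SE 0.0962, adjusted p = 0.0113, edgeR). The groups of both NADH-side genes were separated. Ndufs7, close to the ubiquinone site, measured 147 and 146 CPM against 190 and 168 CPM, a log2 fold of 0.33 (SE 0.102, adjusted p = 0.0256, edgeR). Ndufs7 was the one named gene whose direction turned in cells of at least 5000 UMIs, to a log2 fold of -0.038 that was not called.

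Ndufs1, the largest subunit and the carrier of further iron-sulfur clusters of the N module, was not called. It measured 74.5 and 80.0 CPM in MMPlow and 70.2 and 74.3 CPM in MMPhigh. The MMPhigh libraries lay just below the MMPlow libraries, and the log2 fold of -0.06 (SE 0.0860, adjusted p = 0.58, edgeR) did not pass.

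**Figure D2:**
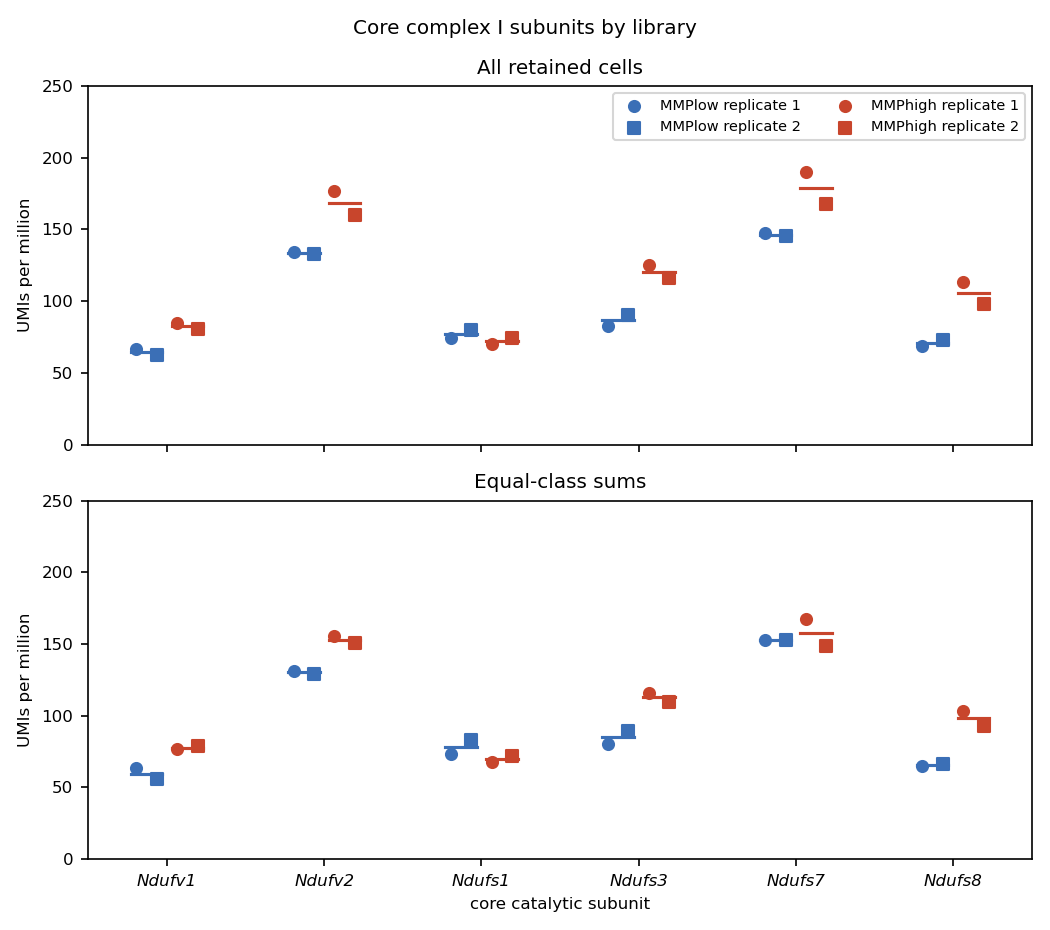
Level in CPM of the core subunits reported here in each of the 4 libraries (circles replicate 1, squares replicate 2, lines the mean of a gate), over all retained cells and over sums with an equal number of cells per class. In all retained cells Ndufs8 goes from 68.5 and 72.7 CPM in MMPlow to 113 and 97.7 CPM in MMPhigh, while Ndufs1 stays between 70.2 and 80.0 CPM.

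Of the accessory subunits, few were called, beside the 27.2% of all genes called higher. Of the 10 N module genes, Ndufv1 and Ndufv2 were the 2 called, and 4 of the 5 Q module genes were called. Ndufa5, a small accessory subunit that was not, measured 192 and 162 CPM in MMPlow and 142 and 178 CPM in MMPhigh, overlapping values. In the proximal membrane arm 2 of 10 were higher, with a median log2 fold of 0.08. Ndufa9, which sits where the arms join, measured 77.6 and 77.0 CPM against 99.5 and 85.0 CPM (log2 fold 0.29, adjusted p = 0.041, edgeR), and Ndufa10 measured 127 and 121 CPM against 146 and 146 CPM (log2 fold 0.27, adjusted p = 0.0265, edgeR). In the distal arm 1 of 10 was higher, with a median of 0.16: Ndufb10, at 148 and 170 CPM against 209 and 182 CPM (log2 fold 0.33, adjusted p = 0.0426, edgeR).

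Ndufab1, the mitochondrial acyl carrier protein that also serves fatty acid and lipoate synthesis, measured 219 and 222 CPM in MMPlow and 303 and 244 CPM in MMPhigh. Its log2 fold was 0.35 (SE 0.127, adjusted p = 0.0456, edgeR), close to the threshold, and the MMPhigh libraries differed from each other by more than the lower one differed from MMPlow. Ndufa4 measured 556 and 611 CPM against 586 and 585 CPM, with a log2 fold of 0.04 (SE 0.112, adjusted p = 0.787, edgeR), and the MMPhigh libraries lay between the MMPlow libraries. Ndufa4l2 was called higher, with a log2 fold of 0.70 (SE 0.207, adjusted p = 0.0221, edgeR), at the low levels given above. Ndufab1, Ndufa11, Ndufb4 and Ndufs6 have a possible copy by gene symbol (Ndufab1-ps, Ndufa11b, Ndufb4c and Ndufs6b). No sequences were compared, and a copy under another kind of name would be missed. The counts of these members are uncertain to the extent that reads were divided between copies.

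These counts rest on all 4 libraries, on the clusters without a name and on the depth of the cells. With only named clusters kept, 5 of the 11 genes called over all cells kept the call, and 6 lost it in the same direction. Without MMPlow 1 or MMPlow 2, 4 and 2 members were called, and without MMPhigh 1 or MMPhigh 2, 10 and 18. In cells of at least 5000 UMIs 6 were called, 1 higher and 5 lower. The 1 higher was Ndufs3, with a log2 fold of 0.24. The share of all genes called is not given beside these counts. A change in the members and a change in the calling of all genes therefore cannot be told apart here.

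To compare sums with equal numbers of cells per class, the same number of cells was drawn from each library for every class that had 20 cells or more in all 4 libraries, which 7 classes did. In these equal-class sums 3 of 38 members were higher and 0 lower, among 16473 genes of which 5.91% were called higher and 7.57% lower (edgeR). DESeq2 called 2 higher and 0 lower, and at an unadjusted p 7 were higher and 0 lower, as were 2416 and 2547 of the 16473 genes. The median log2 fold was 0.05 for members and 0.01 for all genes. The groups did not overlap for 9 members with MMPhigh higher and for 7 with MMPhigh lower, against 26.9% and 33.5% of all genes.

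All 3 that passed were core subunits. Ndufs8 measured 64.7 and 66.1 CPM in MMPlow and 104 and 92.9 CPM in MMPhigh, a log2 fold of 0.63 (SE 0.103, adjusted p = 0.00999, edgeR). Ndufs3 measured 80.1 and 89.5 CPM against 116 and 109 CPM, a log2 fold of 0.45 (SE 0.103, adjusted p = 0.0292, edgeR). Ndufv1 measured 63.2 and 55.9 CPM against 76.7 and 78.7 CPM, a log2 fold of 0.43 (SE 0.0991, adjusted p = 0.03, edgeR). In the sums of all cells the same folds were 0.62, 0.51 and 0.39. The draw equalized cell numbers in 7 of 12 named classes, endothelial-like cells not among them, and not the UMIs or the state of the cells within a class.

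The other core genes did not pass in the equal-class sums. Ndufv2 measured 131 and 129 CPM against 155 and 151 CPM, with a log2 fold of 0.28 (adjusted p = 0.0809, edgeR), and its groups were separated. Ndufs7, at 153 and 153 CPM against 167 and 148 CPM, and Ndufab1, at 224 and 236 CPM against 268 and 225 CPM, overlapped, with log2 folds of 0.09 and 0.15. Ndufa4l2 took the opposite sign, at 14.5 and 6.63 CPM against 5.26 and 7.36 CPM, a log2 fold of -0.66 (SE 0.350, adjusted p = 0.254, edgeR) that did not pass. After Ndufa4l2, the lowest folds were those of Ndufc1 and Ndufa3 at -0.24 and Ndufa2 and Ndufa5 at -0.22, none of them called. Without either MMPlow library 0 members were called, without MMPhigh 1 there were 4, and without MMPhigh 2 there were 7, of which 4 were lower. In cells of at least 5000 UMIs the 1 call was Ndufs3, at a log2 fold of 0.39, while Ndufs8 was at 0.30 and Ndufv1 at 0.43. Beside these alternative counts the share of all genes called is not given.

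The promoter sequences of the genes called in the equal-class sums are shown because these are the members that passed there, and those of Ndufs7 and Ndufa9 because they hold the YY1 motif that was most frequent among members. They are RefSeq sequences of GRCm38.p6, 250 bases before to 50 bases after the annotated start, in the direction of transcription, and 33 of 38 members had an entry. Capitals mark matches, on either strand, to the motif letters named in the next paragraph. The locations are chr19:3912725-3913024 on the minus strand for Ndufs8, chr2:90904672-90904971 on the minus strand for Ndufs3, chr19:4012706-4013005 on the minus strand for Ndufv1, chr10:80249199-80249498 on the plus strand for Ndufs7 and chr6:126849095-126849394 on the minus strand for Ndufa9.
Ndufs8: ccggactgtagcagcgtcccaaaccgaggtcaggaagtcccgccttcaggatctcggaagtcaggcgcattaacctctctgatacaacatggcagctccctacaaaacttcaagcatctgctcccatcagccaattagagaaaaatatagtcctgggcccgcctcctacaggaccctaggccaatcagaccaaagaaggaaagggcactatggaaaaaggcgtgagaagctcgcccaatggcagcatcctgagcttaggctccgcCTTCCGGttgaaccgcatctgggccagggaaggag
Ndufs3: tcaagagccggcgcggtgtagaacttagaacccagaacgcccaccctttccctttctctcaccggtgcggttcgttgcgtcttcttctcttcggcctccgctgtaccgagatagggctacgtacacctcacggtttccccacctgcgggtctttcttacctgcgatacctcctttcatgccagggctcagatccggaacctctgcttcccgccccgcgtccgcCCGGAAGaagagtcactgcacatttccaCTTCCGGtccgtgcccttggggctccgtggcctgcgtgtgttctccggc
Ndufv1: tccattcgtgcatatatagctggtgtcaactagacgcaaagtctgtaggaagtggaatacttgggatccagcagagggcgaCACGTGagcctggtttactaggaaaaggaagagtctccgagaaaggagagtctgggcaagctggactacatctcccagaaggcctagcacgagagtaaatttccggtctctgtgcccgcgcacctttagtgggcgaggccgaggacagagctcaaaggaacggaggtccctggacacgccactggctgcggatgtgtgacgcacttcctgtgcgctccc
Ndufs7: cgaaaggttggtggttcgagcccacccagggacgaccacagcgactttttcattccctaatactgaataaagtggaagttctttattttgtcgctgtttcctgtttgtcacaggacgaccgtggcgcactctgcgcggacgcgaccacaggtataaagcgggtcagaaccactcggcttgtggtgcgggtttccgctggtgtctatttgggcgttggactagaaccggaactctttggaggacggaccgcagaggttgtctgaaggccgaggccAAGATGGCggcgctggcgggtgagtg
Ndufa9: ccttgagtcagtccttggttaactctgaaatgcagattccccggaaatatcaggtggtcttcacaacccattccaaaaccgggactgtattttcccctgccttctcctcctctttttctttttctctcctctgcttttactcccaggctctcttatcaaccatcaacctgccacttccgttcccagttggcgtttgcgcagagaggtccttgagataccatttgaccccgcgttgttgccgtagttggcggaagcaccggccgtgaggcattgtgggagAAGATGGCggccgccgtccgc

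The motifs searched on both strands were AAGATGGC for YY1, GCATGCGC for NRF1, CCGGAAG for GABPA and other ETS factors, CACGTG for the E-box of MYC and GACGTG for the hypoxia response element. No motif lies within another. AAGATGGC was found in 7 of 33 members (21.2%) and in 2.88% of 27025 promoters of the same length, and in all 7 it lay within the 50 transcribed bases, as it did in 1.24% of all promoters. The genes were Ndufc1, Ndufa9, Ndufa3, Ndufs7, Ndufs6, Ndufs4 and Ndufb8. GCATGCGC was found in 3 (9.09% against 2.80%) and CCGGAAG in 4, among them Ndufs3 and Ndufs8 (12.1% against 9.12%). CACGTG was found in 2, Ndufv1 among them (6.06% against 7.24%), and GACGTG in 2 (6.06% against 6.35%). A match describes letters in this window and not a binding site or a cause. The 3 genes called in the equal-class sums shared no one motif, and none of them held AAGATGGC.

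Because total complex I share and single folds both depend on scaling, the make-up of the complex I transcripts was also taken as a share within them. The 7 core genes gave 10.3% and 10.5% of member UMIs in the MMPlow libraries and 12.5% and 11.9% in the MMPhigh libraries. The means were 10.4% ± 0.101 and 12.2% ± 0.444 (SD, n = 2 each), a difference of 1.78 percentage points with no overlap. The difference was 1.74 in cells of at least 5000 UMIs, 1.42 with Ndufs8 left out, and 1.47 to 2.1 with 1 library left out at a time. This share was examined after the folds had been seen, so it is a description of them on another scale and has no test.

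MMPhigh was above MMPlow in core share in 10 of 12 named classes, some of them thinly filled: granulocyte or mast-like cells, 5 and 12 in MMPhigh, had 10.1% and 10.4% against 12.1% and 10.6%, and epithelial or mesonephric-like cells numbered 21 and 16 there. Erythroid-like cells went from 11.0% to 13.8%, germ cell-like cells from 8.40% to 11.5%, megakaryocyte-like cells from 10.2% to 12.4% and neural or neural crest-like cells from 9.86% to 12.1% (means of 2 libraries). Macrophage-like and mesenchymal-like cells went from 10.0% to 11.4% and from 10.3% to 11.7%, and muscle progenitor-like cells from 10.0% to 11.4%. The libraries overlapped in the haematopoietic progenitor-like and mural-like classes, which had as few as 4 and 14 cells in an MMPhigh library. Endothelial-like cells went from 10.5% to 12.8%, the latter from 13 cells in each MMPhigh library. In macrophage-like cells of at least 5000 UMIs the groups overlapped, at 11.3% and 10.5% against 11.8% and 10.9%.

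**Figure D3:**
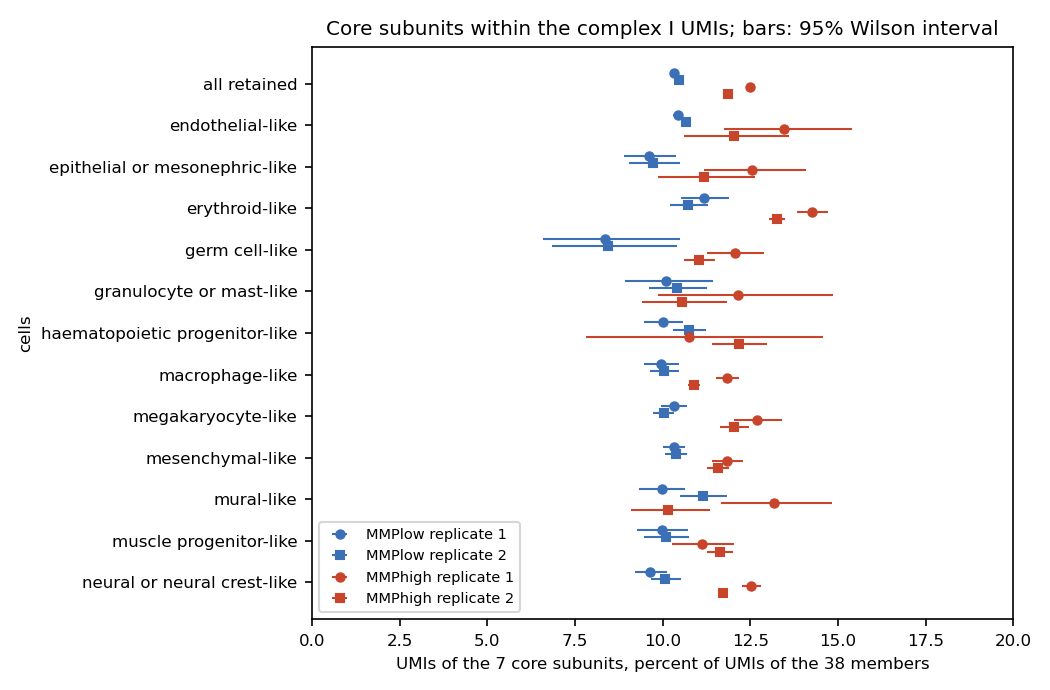
Core subunits as a percent of the UMIs of all 38 complex I genes, by class and library, with 95% Wilson intervals that cover counting error only. Over all retained cells the MMPlow libraries sit at 10.3% and 10.5% and the MMPhigh libraries at 12.5% and 11.9%, and the MMPhigh points lie to the right in all but the haematopoietic progenitor-like and mural-like classes.

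Within classes, macrophage-like cells had the most members called. For the classes and the class-by-gate terms below, counts from DESeq2, other depths, clusterings or left-out libraries mostly lack the share of all genes called. Where it is not printed, a change in the members and a change in the calling of all genes cannot be told apart. Of 37 members tested, 22 were higher and 0 lower in MMPhigh, against 18.3% and 18% of 12476 genes (edgeR), and DESeq2 called 15 higher and 0 lower. The median log2 fold was 0.34 for members and 0.00 for all genes. By module, 6 of 10 N module, 4 of 5 Q module, 6 of 10 proximal and 6 of 10 distal arm genes were higher. Ndufs8 measured 68.3 and 79.6 CPM in MMPlow and 129 and 131 CPM in MMPhigh, a log2 fold of 1.02 (SE 0.114, adjusted p = 2.36e-06, edgeR). Ndufa9 measured 78.8 and 71.7 CPM against 114 and 110 CPM, a log2 fold of 0.79 (SE 0.110, adjusted p = 2.28e-05, edgeR). Ndufb8, a distal arm subunit, measured 234 and 312 CPM against 395 and 379 CPM, a log2 fold of 0.71 (SE 0.130, adjusted p = 0.000483, edgeR). All 3 had separated groups. Ndufs1 measured 65.6 and 57.2 CPM against 53.4 and 55.9 CPM, and Ndufa5 162 and 124 CPM against 91.4 and 124 CPM, and neither was called. The TMM-scaled fold of Ndufs1 was positive, although both MMPhigh libraries lay below both MMPlow libraries in CPM. Of the 37 members, 36 had a positive fold. In CPM the libraries were separated for 19 members with MMPhigh higher and for 3 with MMPhigh lower. Of all 12476 genes, 2510 and 6480 were.

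The macrophage result depended on the scaling and on which cells stood for the class. With UMI totals in place of TMM factors, which moved the median of all genes in this class by -0.22 on the log2 scale, 10 members were higher and 0 lower, with a median log2 fold of 0.12, against 9.76% and 30.5% of all genes. Among cells with at least 5000 UMIs, 72 and 195 in MMPlow and 309 and 745 in MMPhigh, 0 were called and Ndufs8 had a log2 fold of 0.30. At a coarser clustering, where the class was led by C1qc, C1qa and C1qb and held 140, 277, 347 and 748 cells, 0 were higher and 1 was lower. The main class held 704, 908, 370 and 755 cells in a pair of clusters, the larger of which, taken alone, had 21 of 37 members called higher, against 15.4% of genes. The gates filled these clusters differently: the smaller held 19 and 37 MMPlow cells and 157 and 333 MMPhigh cells. Without MMPlow 1, 14 were called. Macrophage markers summed to 7805 and 8554 CPM in MMPlow and 9474 and 9742 CPM in MMPhigh, and endothelial markers in the same cells to 923 and 722 CPM against 106 and 104 CPM. The part of this difference in the result was not tested.

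Megakaryocyte-like cells had 4 of 37 members higher and 0 lower, against 3.33% and 7.63% of all genes, and all 4 were core genes. Ndufs8 measured 52.6 and 63.6 CPM in MMPlow and 117 and 111 CPM in MMPhigh, a log2 fold of 1.12 (adjusted p = 0.00325, edgeR). Ndufs3 measured 64.8 and 74.6 CPM against 101 and 104 CPM, a log2 fold of 0.71 (adjusted p = 0.023, edgeR), and Ndufs7 156 and 159 CPM against 239 and 211 CPM, a log2 fold of 0.66 (adjusted p = 0.0224, edgeR). The MMPhigh libraries were above the MMPlow libraries for each. In cells of at least 5000 UMIs 0 were called, without MMPlow 1 there was 1 and without MMPlow 2 there were 8. Endothelial markers in these cells summed to 1675 and 1204 CPM in MMPlow and to 392 and 410 CPM in MMPhigh, and their part was not tested.

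Erythroid-like cells, the class with the highest levels of most members, had 4 of 38 higher and 0 lower, against 2.05% and 4.13% of all genes. Ndufv1 measured 70.3 and 54.7 CPM in MMPlow and 108 and 110 CPM in MMPhigh, a log2 fold of 0.78 (adjusted p = 0.00364, edgeR). Ndufs3 measured 107 and 94.6 CPM against 171 and 168 CPM, a log2 fold of 0.71 (adjusted p = 0.00336, edgeR), and Ndufs8 71.3 and 88.1 CPM against 138 and 118 CPM, a log2 fold of 0.61 (adjusted p = 0.0224, edgeR). These 3 were still called in cells of at least 5000 UMIs, at log2 folds of 0.82, 0.67 and 0.59, and the fourth was Ndufa10. Erythroid markers, globins among them, summed to 71842 and 51315 CPM in MMPlow and to 19818 and 3930 CPM in MMPhigh, so the cells under this name were not the same in both gates, and the part of this was not tested. Without MMPlow 1 and MMPlow 2, 1 and 0 members were called, and without MMPhigh 2 there were 13, 4 of them lower.

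Germ cell-like cells had 4 of 37 members higher and 0 lower, against 4.15% and 3% of all genes, but only 30 cells in each MMPlow library. Among them were Ndufv1, at 63.8 and 52.5 CPM against 128 and 126 CPM (log2 fold 1.27, adjusted p = 0.0284, edgeR), and the distal arm gene Ndufb2, at 109 and 97.6 CPM against 191 and 214 CPM (log2 fold 1.12, adjusted p = 0.0173, edgeR). The gates were separated in both. DESeq2 called 0, UMI totals without TMM gave 1, and leaving out either MMPlow library gave 1. Leaving out MMPhigh 2 gave 9. With the replicate number as a block 8 were called. Endothelial markers in these cells summed to 1760 and 698 CPM in MMPlow and to 202 and 204 CPM in MMPhigh, and germ cell markers to 839 and 743 CPM against 1662 and 1495 CPM. Mitochondrially encoded UMIs went from 7.69% to 4.46% and ribosomal protein UMIs from 14.9% to 21.5%. The part of these in the result was not tested.

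Mesenchymal-like cells had 2 of 38 members higher and 0 lower, against 5.43% and 9.89% of all genes. They were Ndufv1, at 60.1 and 62.2 CPM against 83.3 and 79.9 CPM (log2 fold 0.45, adjusted p = 0.0201, edgeR), and Ndufs3, at 79.7 and 92.1 CPM against 112 and 109 CPM (log2 fold 0.41, adjusted p = 0.0342, edgeR). Neural or neural crest-like cells had 2 of 38 higher and 0 lower, against 10.3% and 11.8% of all genes, with a member median of -0.10. This class joined a cluster led by Dcc and Cacna2d3 with a smaller one whose leading genes included the hepatic genes Afp, Rbp4, Apoa2 and Alb beside Neurod1 and Isl1, and the smaller one held 34 and 25 of its cells in MMPlow and 143 and 88 in MMPhigh. They were Ndufv1, at 61.7 and 54.5 CPM against 78.7 and 72.8 CPM (log2 fold 0.44, adjusted p = 0.0278, edgeR), and Ndufs8, at 60.0 and 55.6 CPM against 76.2 and 69.5 CPM (log2 fold 0.39, adjusted p = 0.0406, edgeR). Both called genes of the neural class were core subunits, of which 5 of 7 had a positive fold. DESeq2 called 0 in both classes. With UMI totals alone the neural class had 0 higher and 4 lower, and the mesenchymal class 1 higher. Leaving out MMPlow 1 gave 0 in both. Leaving out MMPhigh 1 gave 0 in the neural class and 1 in the mesenchymal class, and leaving out MMPhigh 2 gave 6 in the neural class, all lower, and 5 in the mesenchymal class, 1 of them lower. Without MMPlow 2 the neural class had 1. Endothelial markers summed to 1319 and 712 CPM in MMPlow and 44.9 and 57.3 CPM in MMPhigh in the mesenchymal class, and to 1008 and 692 CPM against 36.5 and 24.6 CPM in the neural class, and their part was not tested.

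Muscle progenitor-like cells had 0 of 37 called by edgeR in either direction, against 0.191% higher and 1.57% lower of all genes, with 1 higher at an unadjusted p and 0 by DESeq2. Across the 7 classes tested, Ndufv1 was called higher in 5 and Ndufs3 and Ndufs8 in 4 each, and the fold of all 3 was positive in 7 of 7. A positive fold in 7 of 7 was not particular to them: Ndufv2 and the accessory genes Ndufa10, Ndufb5 and Ndufb8 also had it. The libraries are the same in every class, so these are not independent repeats. The share of all genes called in as many classes, or positive in 7 of 7, is not given. These counts therefore have no background to be read against. In endothelial-like cells, tested although MMPhigh held 13 cells per library, edgeR called 0 of 38, against 0.791% higher and 1.18% lower. At an unadjusted p 1 was higher and 5 lower, as were 706 and 1347 of 14911 genes, and DESeq2 called 1 higher. The median log2 fold was -0.15 for members and -0.18 for all genes. The lowest log2 fold there was -0.76, for Ndufb10 (adjusted p = 0.0938, edgeR).

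**Figure D4:**
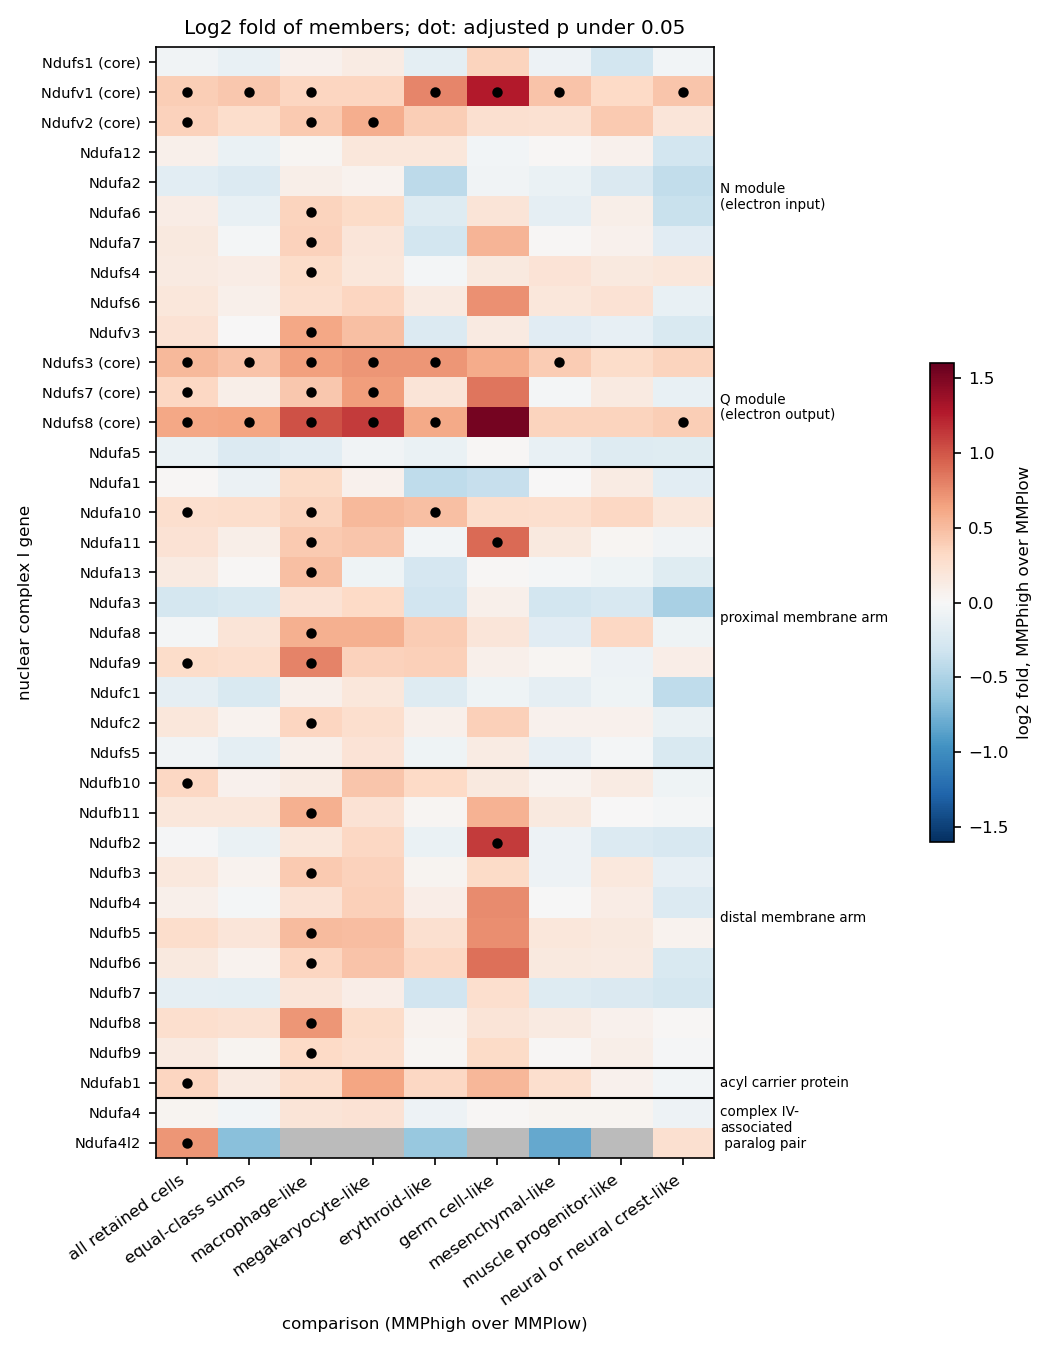
Log2 fold change, MMPhigh over MMPlow, of the members reported here in the sums of all cells, the equal-class sums and each class, with a dot where the edgeR adjusted p is under 0.05 and grey where the gene was not tested. The macrophage-like column holds the most dots of the 7 classes, and Ndufv1, Ndufs3 and Ndufs8 carry dots in 5, 4 and 4 of the 7 classes. The share of all genes called in as many classes is not given.

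Whether the gate difference itself differed between classes was tested as a class-by-gate term with the library as a block. Against mesenchymal-like cells, the log2 fold in macrophage-like cells was higher for 15 of 38 members and lower for 0, against 14.7% and 12.1% of 14760 genes (edgeR, adjusted p under 0.05). The difference in log2 fold was 0.81 for Ndufv3, a small N module subunit (SE 0.131, adjusted p = 3.59e-07, edgeR), 0.78 for Ndufa9 and 0.77 for Ndufa8. Of the 7 core genes, Ndufs8 and Ndufs7 differed, by 0.68 and 0.48. DESeq2 called 3, cells thinned to 2000 UMIs gave 5, and leaving out MMPhigh 2 gave 8.

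In neural or neural crest-like cells the log2 fold was lower than in mesenchymal-like cells for 9 of 38 members and higher for 0, against 8.33% and 2.91% of 15204 genes (edgeR). The median term was -0.20 for members and -0.08 for all genes, so all genes leaned the same way. The joint fit has its own scaling, and its terms need not equal the difference between the folds of the separate classes. The term was -0.47 for Ndufb6, a distal arm subunit (SE 0.115, adjusted p = 0.00809, edgeR), -0.40 for Ndufab1 and -0.40 for Ndufs6, a zinc-binding N module subunit. Ndufc1 and Ndufa2 had negative folds in both classes, -0.41 and -0.39 in neural and -0.14 and -0.11 in mesenchymal cells, and the other 7 were negative in neural and positive in mesenchymal cells. None of the 7 core genes was among the 9. DESeq2 and the thinned cells called 0, and without MMPhigh 1 there were 0. Without MMPhigh 2 there was 1, and it was higher, and without MMPlow 1 and MMPlow 2 there were 5 and 3.

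The members' folds followed the length of their transcripts in part. The median spliced length of a member's coding transcripts in GENCODE vM21 ran from 382 to 2625.5 bases. Across the 38 members, Spearman's rho between length and log2 fold in the equal-class sums was 0.47, while it was -0.04 over 14304 genes and -0.04 over the 6788 genes in the same range of length. The median log2 fold was -0.04 for the 19 shorter members and 0.18 for the 19 longer ones. In macrophage-like cells rho was 0.21 over 37 members and -0.24 over all genes. Genes in one set of libraries share their depth and are not independent replicates, so these are descriptions. All 7 core genes are longer than the members' median of 810 bases, and Ndufs1, the longest at 2625.5 bases, had a log2 fold of -0.12.

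**Figure D5:**
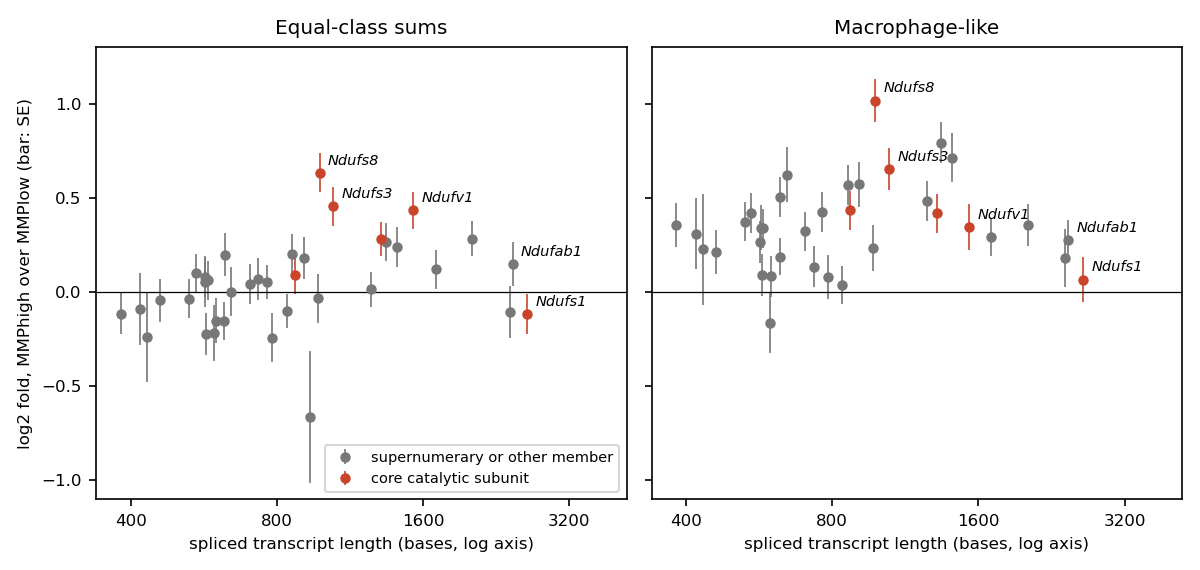
Log2 fold change (MMPhigh over MMPlow, with standard error bars) in the equal-class sums and in macrophage-like cells against the spliced transcript length in bases on a log axis, for the members reported here, with core subunits in red. In the equal-class sums the core subunits Ndufs8, Ndufs3 and Ndufv1 lie at 0.63, 0.45 and 0.43, and the longest member, Ndufs1, at -0.12.

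The 7 complex I subunits encoded by mitochondrial DNA had calls in either direction, depending on the class. Over all cells 0 were higher and 5 lower, with a median log2 fold of -0.42, against 27.2% and 26.5% of all genes. In each of 4 classes 0 were higher. There, 3 were lower in macrophage-like cells, against 18% of all genes, 5 in germ cell-like cells, against 3%, 2 in megakaryocyte-like cells, against 7.63%, and 1 in mesenchymal-like cells, against 9.89%. In erythroid-like cells 1 was higher, against 2.05%, and 0 lower, with a median log2 fold of 0.36, and in neural or neural crest-like cells 1 was higher and 1 lower, against 10.3% and 11.8%. In muscle progenitor-like cells edgeR called 0, with 3 higher at an unadjusted p and a median of 0.36. In the equal-class sums 1 was lower, mt-Nd6, the one encoded on the opposite strand to the rest, at 74.1 and 75.9 CPM in MMPlow and 39.6 and 31.4 CPM in MMPhigh (log2 fold -1.04, adjusted p = 0.00481, edgeR). The median of the 7 there was -0.10. Of 20 assembly factors, which build the complex but do not stay in it, 3 were higher and 1 lower over all cells and 0 in the equal-class sums by edgeR, where 1 was higher and 2 lower at an unadjusted p.

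The other respiratory complexes had calls in the same direction over all cells, where 27.2% of all genes were called higher. Complex II, which feeds electrons from succinate, had 2 of 4 genes higher and 0 lower, while the nuclear lists had 4 of 9 higher for complex III, 5 of 15 for complex IV and 2 of 17 for complex V, each with 0 lower. The higher calls in macrophage-like cells were not particular to complex I. There, 3 of 4 complex II, 4 of 9 complex III, 7 of 14 complex IV and 9 of 17 complex V genes were higher, against 18.3%. In that class 1 complex IV gene was lower. In neural or neural crest-like cells 2 complex III genes and 1 complex IV gene were lower, against 11.8%, and none of these complexes had a gene higher. In the equal-class sums Sdhb, the iron-sulfur subunit of complex II, was higher, at 107 and 112 CPM against 138 and 136 CPM (log2 fold 0.37, adjusted p = 0.0386, edgeR). Atp5c1, the central stalk subunit of ATP synthase, was higher as well, at 277 and 293 CPM against 367 and 368 CPM (log2 fold 0.41, adjusted p = 0.0324, edgeR), and for complexes III and IV edgeR called 0 there, with 1 complex III gene higher and 1 complex IV gene lower at an unadjusted p. Of 16 hypoxia genes, 7 were lower and 0 higher over all cells, against 26.5% of all genes lower, and in neural or neural crest-like cells 5 of 13 tested were lower and 1 higher, against 11.8% and 10.3%. In macrophage-like cells 3 of 14 tested were higher and 0 lower, against 18.3% of all genes higher, and in mesenchymal-like and erythroid-like cells 2 each were lower, against 9.89% and 4.13%, and 0 higher. Slc2a1, a glucose transporter, was the 1 called in the equal-class sums, with a log2 fold of -0.93 (adjusted p = 0.00317, edgeR). Of 13 regulators of mitochondrial biogenesis, 4 were higher and 4 lower over all cells, Yy1 among the latter (log2 fold -0.36, adjusted p = 0.00919, edgeR), and 0 were called in the equal-class sums.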

How the data were processed

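UMI counts per gene and barcode, whole numbers as the authors deposited them, came from Cell Ranger 7.0.1 per the file headers; the submitters' processing notes name Cell Ranger 2.1.1 and mm10. Libraries were made with the 10x 3' v3 kit, per the labels' protocols. Barcodes with at least 2000 UMIs, at least 1000 genes and under 25% mitochondrially encoded UMIs were kept, and Scrublet doublets (scanpy 1.11.5) were removed. Cells were clustered on 2000 variable genes with 30 components and Leiden resolution 1, giving clusters that were named from marker lists by thresholds set after the clusters were seen.

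Counts were summed per library, or per class and library for classes of at least 20 cells in every library, and tested with edgeR 4.0.16 (R 4.3.3; TMM, filterByExpr, robust quasi-likelihood F-test, two-sided) over all genes, with an adjusted p under 0.05 as a call. CPM are UMIs scaled to the total of the same sum. Long genes span over 100 kb. DESeq2 1.42.0 was an alternative, beside other filters, depths, clusterings and left-out libraries. The test was also run on counts simulated for the sums of all cells with a fixed spread between libraries. The outcome is not given here and does not cover the classes. Intervals cover counting error only.

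The labels do not say whether same-numbered libraries share more than a number. Members and gene lists were chosen with earlier results of these data known. Named in depth were core subunits, Ndufa4, Ndufa4l2 and Ndufab1, and the called members of largest fold (up to 10 per direction in the sums, 3 per class). Members with a possible copy by symbol, and up to 4 called genes of each other list in the equal-class sums, were also named. Members shown as examples of the lowest folds, levels by class and differences between classes were chosen after their values were seen. One member that this rule names is counted but not reported here.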

Additional observations from a re-analysis of the deposited data

Results flagged for a closer look

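The change between gates differed between classes for 24 gene results, by the class-by-gate term of edgeR with the library as a block (log2 scale, adjusted p under 0.05). In macrophage-like against mesenchymal-like cells the log2 fold was higher for 15 members. By role these were Ndufv3 (0.81), Ndufa6 (0.52) and Ndufa7 (0.36) of the N module, Ndufs8 (0.68) and Ndufs7 (0.48) of the Q module, Ndufa9 (0.78), Ndufa8 (0.77), Ndufa13 (0.52) and Ndufa3 (0.52) of the proximal arm, and Ndufb8 (0.60), Ndufb3 (0.52), Ndufb11 (0.44), Ndufb7 (0.41), Ndufb5 (0.33) and Ndufb9 (0.32) of the distal arm. In neural or neural crest-like against mesenchymal-like cells the log2 fold was lower for 9 members. These were Ndufs6 (-0.40), Ndufa12 (-0.39), Ndufa2 (-0.38), Ndufa11 (-0.30) and Ndufa7 (-0.29), and further Ndufb6 (-0.47), Ndufab1 (-0.40), Ndufc1 (-0.36) and Ndufa4 (-0.22). Ndufa7 passed in both, with opposite signs. The mesenchymal-like libraries are shared by both comparisons.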

How the results depend on the processing

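The following give members called, in either direction, against the reported 11 over all cells, 3 in the equal-class sums, 22 in macrophage-like, 4 each in megakaryocyte-like, erythroid-like and germ cell-like, and 2 each in mesenchymal-like and neural cells. Cells thinned to 2000 UMIs gave 7 over all cells, 6 in the equal-class sums, 1 in erythroid-like and 0 in germ cell-like, megakaryocyte-like, mesenchymal-like and neural cells, and 5 and 0 for the macrophage and neural class-by-gate terms. At least 5000 UMIs gave 6 over all cells (1 higher, 5 lower), 1 in the equal-class sums, 0 in macrophage-like, megakaryocyte-like and mesenchymal-like and 1 in neural cells, and turned the log2 fold of Ndufs7 over all cells to -0.038 (adjusted p = 0.728, edgeR). The looser filter of 1000 UMIs gave 3 over all cells. DESeq2 gave 2 in erythroid-like, 0 in germ cell-like, mesenchymal-like and neural cells, 1 in endothelial-like cells against 0, and 3 and 0 for the class-by-gate terms. No low-count filter gave 6 in the equal-class sums, 10 in germ cell-like, 7 in megakaryocyte-like and 5 in neural cells, and a filter of 10 CPM gave 5 in neural cells. Removing the top 6% of doublet scores gave 7 in erythroid-like, 8 in megakaryocyte-like and 5 in neural cells, and under 10% mitochondrially encoded UMIs gave 9 in megakaryocyte-like cells. Leiden resolution 0.5 gave 0 in erythroid-like, 1 in macrophage-like, 8 in megakaryocyte-like and 1 in neural cells. Its classes are not the same cells: the erythroid-like one held 125, 123, 1533 and 223 cells, with Dppa5a, Dppa3 and Rhox9 among its leading genes. UMI totals without TMM, chosen after seeing the data, gave 10 in macrophage-like, 1 in germ cell-like, 1 in mesenchymal-like and 4 in neural cells, and 9 and 5 for the class-by-gate terms. The cause of these shifts was not tested. The share of all genes called is not given beside these counts or beside those with 1 library left out. They therefore do not tell a change in the members from a change in the calling of all genes.

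Leaving out 1 library at a time gave 2 to 18 over all cells, 0 to 7 in the equal-class sums, 14 to 24 in macrophage-like, 1 to 8 in megakaryocyte-like, 0 to 13 in erythroid-like, 1 to 9 in germ cell-like, 0 to 5 in mesenchymal-like, 0 to 6 in neural and 0 to 1 in endothelial-like cells, and 8 to 18 and 0 to 5 for the class-by-gate terms. The difference in member share, 0.0451 percentage points, ranged from 0.0355 to 0.0547 without 1 library, and was -0.0497 at 5000 UMIs, 0.125 as a median over thinned cells and 0.0624 without mitochondrially encoded, ribosomal and globin genes in the denominator. With the replicate block, 8 members were called over all cells, 3 in the equal-class sums, 23 in macrophage-like and 8 in germ cell-like cells, and deviations of same-numbered libraries correlated at r = 0.138 over 20517 genes. Of 454 alternative values for 30 named gene results, 316 kept the call, 137 lost it in the same direction and 1 reversed. The 30 were chosen because they were called, and the total pools settings that differ widely. With no low-count filter 30 of 30 kept the call, against 13 of 30 in thinned cells. At 5000 UMIs 5 of 27 kept it, 21 lost it in the same direction and 1 reversed.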
